A study of Xenopus laevis with 18 samples.

Results

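The onset of normal neurulation was followed in Xenopus laevis embryos injected with water, as the change from late gastrula to early neurula. The members were chosen by label: all water arrays of these stages, 3 at late gastrula (LG, 13.5 h after fertilization) and 3 at early neurula (EN, 16.5 h), which are 6 of the 18 arrays of the series. The series as a whole set embryos carrying mRNA for Gam1, a viral protein that removes the enzyme activating SUMO, against water embryos at early gastrula (EG, 9 h), LG and EN. Each water embryo had received 9.2 nL of water as a fertilized egg and no RNA, so these are handled controls and not untouched embryos. An array held the RNA of 20 whole embryos. Arrays with the same replicate number deviated together in both stages and were compared as pairs.

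Neurulation begins when the dorsal ectoderm, induced during gastrulation by the underlying mesoderm, thickens into the neural plate, whose borders rise, give rise to the neural crest and later fuse into the neural tube. Beneath it the midline mesoderm becomes the notochord and the flanking mesoderm starts to form somites, while the ventral and lateral ectoderm becomes epidermis with mucus cells, ionocytes and the precursors of multiciliated cells. The same period also sees the disappearance of many maternal transcripts and of the transcription factors that had kept early cells uncommitted.

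Levels are log2 values normalized so that all arrays have the same distribution, with a median of 7.71, a floor of 2.07 and a highest value of 16.13. A change is the EN minus the LG level averaged over the 3 pairs, so that 1 is a doubling of signal, and it is relative to the rest of the transcripts on the array. Where a stage lies near the floor, the change is only a lower limit. In whole embryos, fewer cells of a type and less RNA per cell cannot be told apart. Among the defining markers sought, sox10, gata1, tal1, dnah9, atp6v1b1 and noto had no named probe set, and hnf4a.S, a liver and gut factor gene, was at the floor in both stages (2.08). This frog is allotetraploid, and .L or .S after a symbol names the copy of the long or the short set of chromosomes. For a few probe sets, among them that of hoxa11.S (annotated to 6L), the suffix and the annotated chromosome disagreed.

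With limma and all 23630 probe sets in the paired fit, 0 were called at an adjusted p of 0.05. The smallest adjusted p was 0.0704, and 9427 probe sets had an unadjusted p under 0.05, with 4330 higher and 5097 lower in EN. When the 3941 probe sets with a mean under 4 in both stages were left out, 6743 of 19689 were called, which is 34.2%, and of these 3227 (16.4%) were higher and 3516 (17.9%) lower. This filter was one of the listed alternatives, but its calls were taken up for the account below after the result of the full fit was known. In what follows "rose" and "fell" mean called in this filtered fit, and adjusted p-values are limma's from it. A further limit is that 555 probe sets passed the filter through EN alone and 561 through LG alone, and such a probe set had to differ. Many of the steepest risers named below passed through EN alone, with an LG mean under 4. Among them are myl1.S, col2a1.L, tcf15.L, atp6v1g3.L, ca2.L, nr2f2.L, pax2.L, isl1.S, dmrta1.S, matn4.L, elovl2.L, snai2.L, tekt2.S and tfap2b.L. Their adjusted p-values carry this limit. The same limit holds for every other called copy with a mean under 4 in either stage. With the filter set on the mean of all 6 arrays, 6550 of 19221 were called.

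All 6743 called probe sets moved in 1 direction in all 3 pairs, the median size was 0.90, and 1558 rose and 1361 fell by more than 2-fold. By gene, the brightest probe set of each of 9149 named gene copies was used. Of these, 8249 were tested, and 1411 (17.1%) rose while 1675 (20.3%) fell. The median change of all gene copies was -0.04. The plot of change against level shows that the rises reached further than the falls, up to 6.40 against -3.54.

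**Figure D1:**
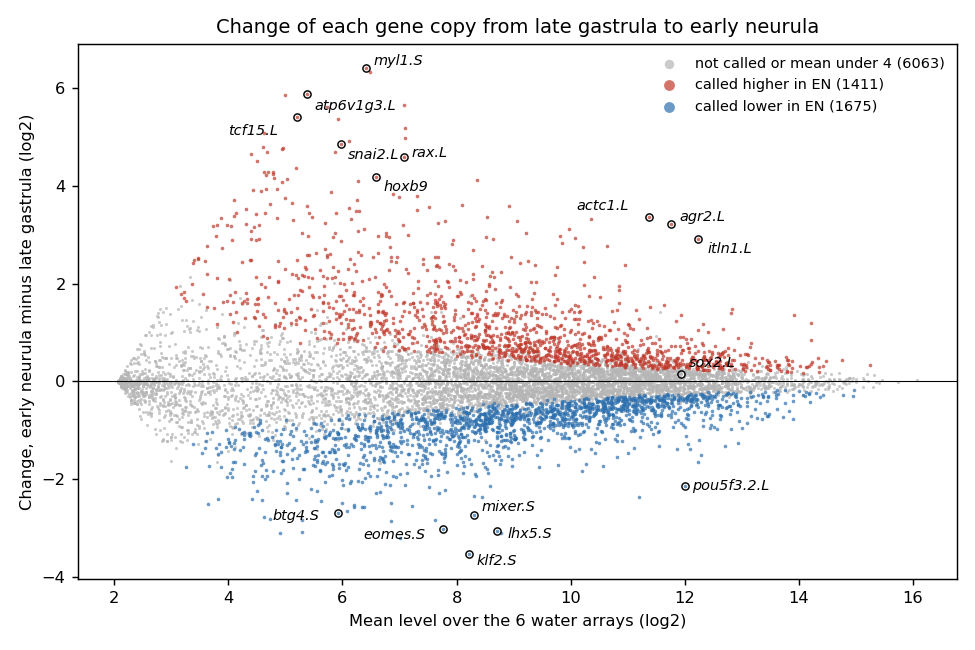
Change from LG to EN (log2, vertical axis) of 9149 gene copies against their mean level over the 6 water arrays (log2, horizontal axis), with called copies in colour and 16 genes named. The 1411 copies called higher extend to 6.40 (myl1.S) and the 1675 called lower to -3.54 (klf2.S), while sox2.L lies near 0.

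The 3 pairs were not equally far apart. Between LG and EN, 2181 probe sets differed by more than 2-fold in pair 1, 2927 in pair 2 and 6114 in pair 3. The LG array of replicate 1 was the nearest of the LG arrays to the EN level for 70.5% of the probe sets that rose and for 68.3% of those that fell, and the correlation over probe sets of this array with the EN array of its own pair was 0.981, against 0.971 and 0.965 with the other LG arrays. The Gam1 LG array of the same replicate number was likewise nearest to EN for 60.3% of the probe sets that rose in water embryos. Without replicate 1, 7320 probe sets were called. Without replicate 2 the count was 2298 and without replicate 3 it was 4815, so the number of calls depended on the pairs used. Leaving out a pair could not turn the direction of a call, since every called probe set moved 1 way in all 3 pairs.

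In the anterior neural plate, genes that pattern the forebrain and the eyes moved in both directions. Of 26 copies of forebrain and eye field genes, all of them tested, 13 rose (50%) and 10 fell (38.5%), with a median change of 0.52. The shares of all gene copies were 17.1% and 20.3%. rax.L, the retinal homeobox gene that marks the eye field, stood at 8.01, 2.84 and 3.50 in LG replicates 1 to 3 and at 9.91, 8.53 and 9.66 in EN. The EN levels lay above all LG levels, and the rise was 4.59 ± 0.80 (SE, n = 3 pairs, adjusted p = 0.014). rax.S rose by 3.51 ± 0.44. In LG, replicate 1 was already high for rax.L while the other arrays were nearer to the floor.

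pax6.L, which encodes the paired-box factor of eye and neural tube, was at 9.99, 7.71 and 8.12 in LG and at 11.50, 11.32 and 11.79 in EN, a rise of 2.93 ± 0.42 (adjusted p = 0.0107), and its 2 probe sets changed by 2.93 and 4.05. dmrta1.S, a telencephalic factor of the DM-domain family, went from 2.72, 2.63 and 2.59 to 6.02, 6.58 and 8.17, a rise of 4.27 ± 0.45. Further rises were those of lmx1b.1.S (2.63, with 0.88 for its other probe set), six3.L (1.74), tbx3.L (1.91), sp8.L (1.44) and fezf2.L (1.35).

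Other anterior factors of the list fell, though both copies of hesx1 rose, hesx1.S by 0.95 and hesx1.L by 0.64. otx2.S, a homeobox gene of forebrain and midbrain, was at 10.12, 10.73 and 10.61 in LG and at 9.47, 9.86 and 9.66 in EN, and fell by 0.82 ± 0.11 (adjusted p = 0.0101). otx2.L fell by 0.40, crx.L and crx.S, named for the Otx-related cone-rod homeobox factor, each fell by 0.93, and the Tcf3 gene copies tcf7l1.L and tcf7l1.S by 0.44 and 0.74. otx2, crx and tcf7l1 were still at a mean of at least 8.17 in EN, far above the floor.

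Genes expressed throughout the plate moved in both directions, at shares near those of all gene copies. The neural plate list held 48 copies, of which 44 were tested, 10 rose (22.7%) and 11 fell (25%). Over all gene copies the shares were 17.1% and 20.3%, and the median change of the list was 0.05. The HMG-box factor sox2.L, which marks the whole plate, was at 12.22, 11.84 and 11.55 in LG and at 12.27, 12.01 and 11.74 in EN, and its change of 0.14 ± 0.08 was not called (adjusted p = 0.191). Its relative sox3.S fell by 0.49 ± 0.08, from a mean of 13.17 to 12.69, and sox3.L fell by 0.52. zic1.S, a zinc-finger gene of plate and border, fell by 0.67, and both copies of gmnn, which encodes the replication inhibitor and neural inducer geminin, fell by 0.68 and 0.70.

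Adhesion genes of the differentiating plate rose. cdh2.L, coding for N-cadherin, was at 8.86, 7.77 and 7.94 in LG and at 10.36, 9.94 and 11.40 in EN, a rise of 2.38 ± 0.35 (adjusted p = 0.011), and cdh2.S rose by 1.58. ncam1.S, the neural cell adhesion molecule, rose by 3.03 ± 0.43, from 4.77, 3.22 and 3.32 to 6.68, 6.27 and 7.45. zic5.S was the member with the largest rise at 3.54 ± 0.47. The copies of zic2 had changes of 0.03 and -0.24 that were not called.

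In the midbrain and hindbrain list 6 of 16 copies rose and 1 fell, with a median change of 0.24. These were 42.9% and 7.14% of the 14 tested, against 17.1% and 20.3% of all gene copies. pax2.L, the paired-box gene of the midbrain-hindbrain boundary, otic placode and pronephros, rose by 4.07 ± 0.56 (adjusted p = 0.01), from 4.31, 2.20 and 2.20 to 7.08, 5.86 and 7.97. Its 3 probe sets did not move alike and ranged from 0.28 to 4.07. meis2.L rose by 2.58, the retinoic acid hydroxylase gene cyp26c1.S by 1.51, its 3 probe sets between 0.74 and 1.86, and gbx2.1.S, which sets the position of the boundary, by 1.35. Falling was cnpy1.S (0.70), whose product modulates FGF signaling at the isthmus in zebrafish, and whose 3 probe sets ranged from -0.70 to 0.03.

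Neuronal genes were mixed. Of 27 copies of proneural and neuronal genes, 17 were tested, 6 rose (35.3%) and 4 fell (23.5%). Over all gene copies the shares were 17.1% and 20.3%. tubb2b.S, a neuronal β-tubulin, was at 7.21, 7.83 and 5.97 in LG and at 7.92, 8.72 and 9.12 in EN, a rise of 1.59 ± 0.48 with an adjusted p of 0.0481. The zinc-finger gene myt1.S rose by 1.39, peripherin (prph.L) by 1.67 and synaptotagmin (syt1.L) by 1.18. isl1.S, a LIM-homeobox gene of sensory and motor neurons and of heart precursors, rose by 4.21 ± 0.36. The neuronal RNA-binding gene elavl3.L had a change of 0.36 ± 0.23 that was not called, and tubb3.L, gap43.L and gap43.S had changes of 0.00.

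The proneural factor neurog2.S itself fell by 0.92 ± 0.24, from 7.09, 7.09 and 6.66 to 6.35, 5.69 and 6.05. lhx5.S, a LIM-homeobox gene of the anterior plate, fell most in the list. Its level was 9.81, 10.43 and 10.46 in LG and 7.31, 7.76 and 6.45 in EN, a fall by 3.06 ± 0.31 (adjusted p = 0.00834), with no overlap between stages. Of the Notch pathway, which holds neuronal precursors back, 4 of 28 copies rose (14.3%) and 1 fell (3.57%). Against the 17.1% and 20.3% of all gene copies, the share that rose was near the background. The 4 were both copies of hes1 (0.80 and 0.36) and the segmentation genes ripply2.1.S and ripply2.2.L, and lfng.S, a modifier of Notch, fell by 0.53, whereas the Notch ligands dll1.L and dlc.L changed by -0.12 (0.03 for the other probe set) and 0.22 and were not called.

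**Figure D2:**
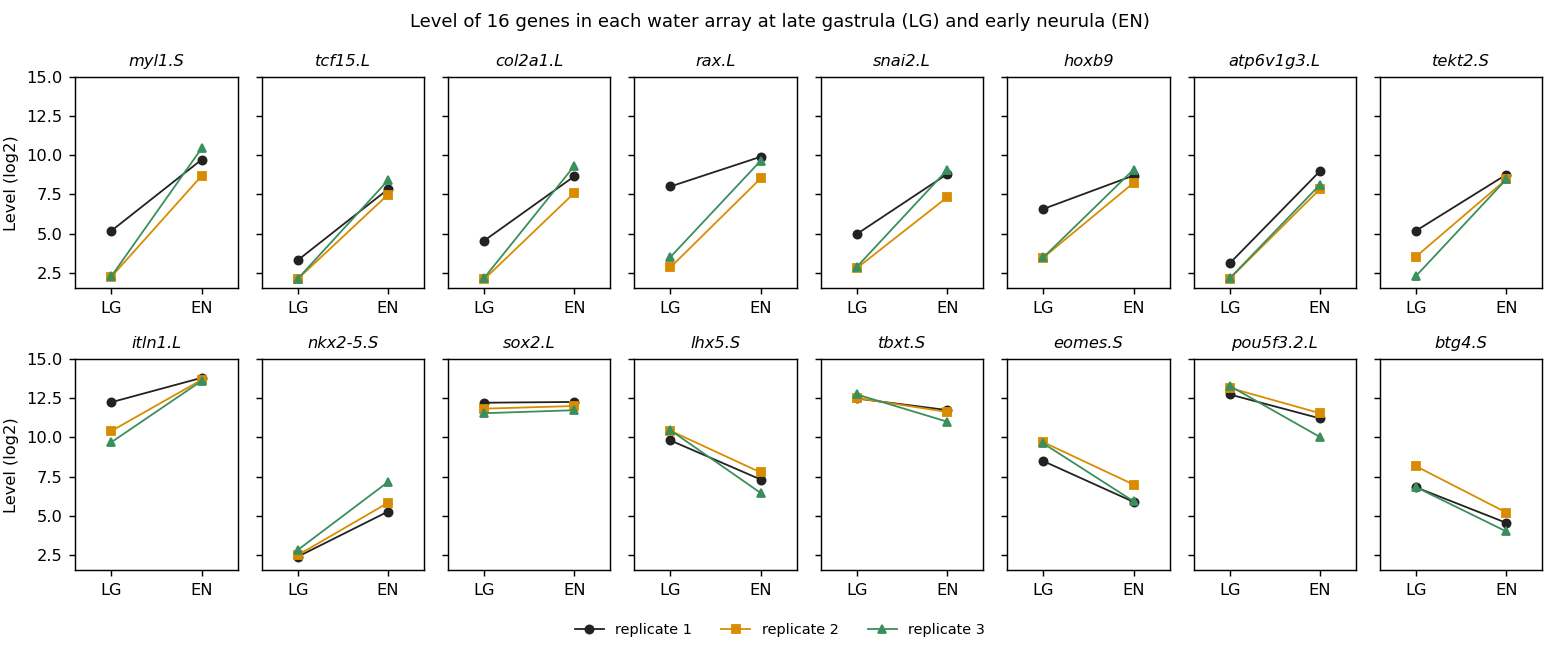
Level (log2, vertical axis) of 16 genes in the 3 water arrays at LG and the 3 at EN, with a line joining the arrays of a pair. For the first 10 genes every EN array is above every LG array, for the last 5 every EN array is below, and sox2.L overlaps; in LG replicate 1 stands highest for rax.L at 8.01 and for hoxb9 at 6.57.

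At the plate border, genes of the neural crest came up while several border genes declined. Of 50 copies 48 were tested, 18 rose (37.5%) and 10 fell (20.8%), with a median change of 0.24. Of all gene copies 17.1% rose and 20.3% fell, so the share that fell was near the background. snai2.L, the zinc-finger gene slug that marks premigratory crest, was at 4.97, 2.79 and 2.87 in LG and at 8.80, 7.32 and 9.07 in EN. The rise was 4.85 ± 0.46 (adjusted p = 0.00817), whereas its partner snai2.S went from a mean of 5.77 to 6.25 and was not called (0.48 ± 0.31). snai2.L passed the filter through EN alone, which limits its adjusted p. tfap2b.L, an AP-2 factor gene, rose by 3.89 ± 0.49, from 2.80, 2.53 and 2.55 to 6.67, 5.13 and 7.75.

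SoxE genes followed, with sox9.S up by 1.29 ± 0.19 and sox8.L by 2.26 ± 0.42. The 3 probe sets of sox8.L ranged from 0.58 to 2.44. The nuclear receptor gene nr2f2.L rose by 4.78 ± 0.42, c9.L, a complement gene, by 1.76 (0.60 for its other probe set) and mycn.S by 1.42. Copies of foxd3, a winged-helix gene of the early crest, changed by 0.04 and 0.12, and twist1.L by 0.40, none of them called.

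Genes of the plate border moved in both directions. tfap2a.L, needed for both epidermis and crest, was at 12.75, 13.09 and 12.86 in LG and at 11.99, 12.24 and 11.79 in EN, a fall by 0.89 ± 0.08 (adjusted p = 0.00817), and tfap2a.S fell by 0.68. kctd15.L, whose product limits crest formation in zebrafish, fell by 0.87 ± 0.10. msx2.L (0.38) and both copies of id3 (0.32 and 0.24) also fell. pax3.S, a paired-box gene of border and crest, rose by 0.77, while pax3.L changed by -0.21 and was not called, its 4 probe sets lying between -0.21 and 1.11. The copies of msx1 changed by 0.25 and -0.06 and were not called.

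In the preplacodal list 4 of 21 copies rose and 4 fell, with a median change of -0.02. Each count was 21.1% of the 19 tested, near the 17.1% and 20.3% of all gene copies. The forkhead gene pair went in opposite directions. foxi4.2.L fell by 1.69 ± 0.20 and foxi4.2.S by 1.55, while foxi1.L rose by 1.13 ± 0.17. Of the cement and hatching gland list, 5 of 13 copies rose and 3 fell, which is 41.7% and 25% of the 12 tested. agr2.L, a disulfide isomerase gene of the cement gland, the mucus organ at the front of the head, was at 10.53, 10.49 and 9.42 in LG and at 12.86, 13.31 and 13.92 in EN, a rise of 3.21 ± 0.38 (adjusted p = 0.00876), and ag1.L rose by 0.56.

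Epidermal genes moved in both directions, and genes for junctions, keratins and secretion were among the risers. The list of non-neural ectoderm held 68 copies, of which 67 were tested, 27 rose (40.3%) and 17 fell (25.4%). The median change was 0.05, and the shares of all gene copies were 17.1% and 20.3%. cldn1.S, coding for a tight junction claudin, was at 6.94, 3.19 and 2.63 in LG and at 10.28, 9.17 and 10.23 in EN, a rise of 5.64 ± 0.74 (adjusted p = 0.00927). The larval epidermal keratin genes krt12.4.L and krt12.4.S rose by 1.20 and 1.36 to means of 14.82 and 14.59, close to the top of the scale. itln1.L, the lectin secreted by epidermal cells, went from 12.25, 10.41 and 9.69 to 13.81, 13.68 and 13.61, a rise of 2.92 ± 0.41, and its EN levels were much closer together than its LG levels.

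Cornified envelope genes joined them, with periplakin (ppl.L) up by 3.36 and envoplakin (evpl.L) by 1.28, as did tp63.S, coding for the master factor of stratified epithelium, by 2.13 ± 0.53. Its levels of 7.73, 5.48 and 3.30 in LG and 8.33, 7.67 and 6.90 in EN overlapped between stages although each pair rose. Of the genes that fell, cldn6.1.L (0.85), cldn7.L (0.42), epcam.S (0.28) and the C-cadherin gene cdh3.L (0.31) serve junctions of the early embryo, and st14.S (1.71) codes for a membrane protease. Regulators were divided, since grhl1.L rose by 0.69 and grhl3.L fell by 0.36.

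Genes of multiciliated cells, whose beating cilia later move fluid over the skin, rose widely. Of 71 copies 67 were tested, 44 (65.7%) rose and 3 (4.48%) fell, and the median change was 0.90. Of all gene copies 17.1% rose and 20.3% fell. tekt2.S, a tektin of the ciliary axoneme, was at 5.18, 3.53 and 2.29 in LG and at 8.77, 8.47 and 8.47 in EN, a rise of 4.91 ± 0.48 (adjusted p = 0.00817). It passed the filter through EN alone, which limits its adjusted p. The rise of cfap52.L was smaller but very even, from 8.57, 8.59 and 8.23 to 10.14, 10.10 and 9.79 (1.55 ± 0.12). Without each replicate in turn, 42, 29 and 41 copies of the list rose.

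The risers covered the parts of a motile cilium. Outer dynein arm genes dnai2.S and dnai1.L rose by 2.74 and 2.34, tektins tekt4.S and tekt1.L by 2.36 and 1.84, the dynein regulatory gene drc1.L by 2.29, radial spoke genes rsph3.L and rsph9.L by 1.34 and 1.31, and the dynein assembly genes zmynd10.L and dnaaf3.L by 2.34 and 1.64. Transport genes ift20.S (1.42), ift80.L (1.29) and ift52.L (1.03) rose less. tubb4b.S, an axonemal tubulin, rose by 1.46.

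The regulators of these genes moved in both directions. foxj1.L, encoding the forkhead factor that turns on motile cilium genes, was at 8.04, 8.31 and 7.24 in LG and at 6.70, 7.07 and 6.44 in EN, a fall by 1.13 ± 0.20 (adjusted p = 0.0143), and foxj1.S fell by 0.48. The related gene foxj1.2.L rose by 1.76 ± 0.38. mcidas.S, which commits cells to many centrioles, rose by 0.90 ± 0.22 with overlapping stages, foxn4.S by 1.23, and ccno.S, a cyclin of centriole amplification, had a change of 0.31 ± 0.11 that was not called. foxj1 is also used in the ciliated roof plate of the gastrocoel and the floor plate in this frog, and whole embryos do not separate these tissues.

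Ionocytes, which pump protons and ions across the skin, included the gene copy with the smallest p of all. atp6v1g3.L, a subunit of the vacuolar proton pump, was at 3.09, 2.11 and 2.13 in LG and at 8.99, 7.84 and 8.12 in EN. Its rise of 5.87 ± 0.23 had an adjusted p of 0.00397 in the filtered fit. It passed the filter through EN alone, and in the limma fit over all probe sets its adjusted p was 0.0704. The carbonic anhydrase gene ca2.L lay on the floor in LG, at 2.11, 2.07 and 2.07, and reached 7.77, 5.48 and 6.92 (4.64 ± 0.45), and slc26a4.3.S, a pendrin-like anion exchanger, rose by 3.59.

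Of the 19 copies in that list 18 were tested, 7 rose (38.9%) and 1 fell (5.56%), with a median change of 0.39. All gene copies had shares of 17.1% and 20.3%. Other pump subunits differed: atp6v0d2.L rose by 2.40 ± 0.26 and atp6v1h.L fell by 1.00. atp6v1a.L, atp6v1d.L and atp6v1f.L changed by -0.15, 0.30 and 0.36 and were not called. The defining marker ca12.L rose by 1.25 ± 0.12, and its 2 probe sets by 1.25 and 1.44. ubp1.L rose by 1.78, and its 2 probe sets by 1.78 and 2.39. foxi1.L, the ionocyte determinant, rose from 10.59, 9.97 and 9.51 to 11.26, 11.18 and 11.00.

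Hox genes were higher in EN. Hox genes give cells their position along the axis, and low group numbers act in the hindbrain and high ones in trunk and tail. All 5 copies of groups 1 to 5 rose (median 2.86), as did all 7 of groups 6 to 8 (2.04) and 4 of the 6 of groups 9 to 13 (1.74). The other 2, hoxa11.S and hoxd13.S, were under 4 in both stages and were not tested, with changes of 0.97 and 0.07. Of all gene copies 17.1% rose and 20.3% fell. hoxb2.S, hoxa2.L and hoxb7.L had a mean of at least 4 in EN alone, so that their passing the filter depended on the difference itself. Without replicate 2, 6 of groups 6 to 8 and 3 of groups 9 to 13 rose, and 5 of groups 1 to 5.

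hoxb9 was at 6.57, 3.46 and 3.47 in LG and at 8.71, 8.24 and 9.09 in EN, a rise of 4.18 ± 0.64 (adjusted p = 0.0116). hoxb7.L went from 4.66, 2.09 and 2.09 to 7.39, 6.44 and 7.44 (4.14 ± 0.50), and hoxb2.S from 3.14, 2.14 and 2.13 to 6.45, 5.75 and 6.93 (3.91 ± 0.36). By contrast hoxc6.S and hoxb4.S had already reached means of 9.69 and 8.37 in LG and rose by 1.24 and 1.28. Copies that came up before LG and copies that came up after it were found in both the low and the middle groups, as the plot of Hox levels by stage shows.

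**Figure D3:**
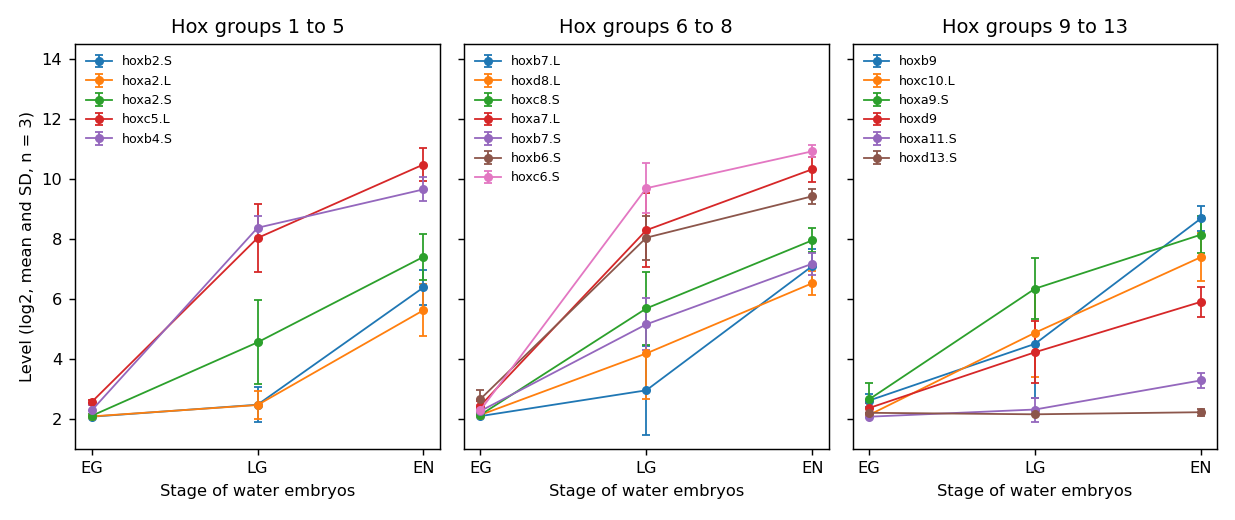
Level (log2, mean ± SD of 3 arrays, vertical axis) of 18 Hox gene copies in water embryos at EG, LG and EN, in 3 panels by group number. All lie below 3 at EG, hoxc6.S is at 9.69 in LG and 10.92 in EN, hoxb2.S and hoxa2.L leave the floor only in EN, and hoxd13.S stays near 2.2.

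Retinoic acid is a vitamin A derivative that sets posterior identity and activates Hox genes. Of 22 copies of its pathway genes 19 were tested, 5 rose (26.3%) and 3 fell (15.8%). Over all gene copies the shares were 17.1% and 20.3%, and the median change of the list was 0.07. The receptor gene rara.L rose by 1.61, one of its 2 probe sets not moving (0.00), and the binding protein gene crabp2.L by 1.45, its 4 probe sets between 0.05 and 1.74. cyp26a1.S, coding for the posterior degrading enzyme, fell by 0.69 ± 0.12 and cyp26a1.L by 0.55 while the anterior cyp26c1.S rose. aldh1a2.L, coding for the synthesizing enzyme, had a change of -0.06 in its brightest probe set, which was not called, but its 5 probe sets ran from -1.11 to 1.29.

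In the axial midline, several matrix genes of the forming notochord rose and some copies of its early transcription factors fell. Of 35 copies 34 were tested, 10 rose (29.4%) and 15 fell (44.1%), with a median of -0.32. The shares of all gene copies were 17.1% and 20.3%. col2a1.L, the type II collagen of the notochord sheath, was at 4.54, 2.07 and 2.15 in LG and at 8.66, 7.60 and 9.33 in EN, a rise of 5.61 ± 0.55 (adjusted p = 0.00817). col9a1.L rose by 2.59, the matrilin gene matn4.L by 3.34 and shh.L, the midline signal that patterns the neural tube, by 2.06 ± 0.45, from 7.91, 6.14 and 5.70 to 8.62, 8.38 and 8.94.

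tbxt.S, the T-box gene brachyury, was at 12.49, 12.52 and 12.75 in LG and at 11.75, 11.63 and 11.01 in EN, and fell by 1.12 ± 0.19 (adjusted p = 0.0136). tbxt.L fell by 0.80, not.L, a notochord homeobox gene, by 0.64, foxa4.L by 0.62, and the organizer gene gsc.S by 0.72. Their partners not.S (-0.18) and gsc.L (-0.20) and the forkhead gene foxa2.L (-0.24, with 0.22 for its other probe set) were not called. The BMP antagonist gene chrd.1.S fell by 0.33. All of these levels stayed well above the floor in EN.

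Of the hedgehog pathway, 6 of 10 copies rose (60%, against 17.1% of all gene copies) and 0 fell (against 20.3%). Besides shh.L these were the co-receptor gene boc.L (0.82), the signal transducer gene smo.L (0.30) and the transcription factor genes gli2.S (1.45), gli2.L (1.23) and gli3.L (0.58). Without replicate 2 only 1 of the copies rose, and without replicate 3 the number was 3.

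Somite genes held 1 of the steepest rises. Of 39 copies of presomitic and segmentation genes 13 rose (33.3%) and 8 fell (20.5%), and the median was 0.17. Of all gene copies 17.1% rose and 20.3% fell, so the share that fell was near the background. tcf15.L, coding for the helix-loop-helix factor paraxis of the somite epithelium, was at 3.29, 2.09 and 2.10 in LG and at 7.83, 7.49 and 8.40 in EN, a rise of 5.41 ± 0.37 (adjusted p = 0.00817). meox2.S (1.07), ripply2.1.S (1.05), the paraxial protocadherin genes pcdh8.L (2.11) and pcdh8l.S (1.09) and tbx6.L (0.59) rose as well. mespa.S rose by 1.13 and its relative mespb.L fell by 0.63, from 9.14, 9.04 and 9.49 to 8.52, 8.54 and 8.71.

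Contractile genes climbed from very different starting levels. In the skeletal muscle list 35 copies were measured, 26 tested, 16 rose (61.5%) and 1 fell (3.85%), and the median was 0.53. Of all gene copies 17.1% rose and 20.3% fell. myl1.S, a myosin light chain, had the largest fitted value of all gene copies, which is a lower limit since 2 of its LG arrays were near the floor, as were those of col2a1.L, tcf15.L and atp6v1g3.L. Its level was 5.17, 2.23 and 2.26 in LG and 9.72, 8.68 and 10.44 in EN, a rise of 6.40 ± 0.63 (adjusted p = 0.00831). myl1.L rose by 3.11 from a mean of 8.41, the cardiac actin gene actc1.L, which is the first sarcomeric actin of somites in this frog, from 10.78, 9.02 and 9.26 to 13.02, 12.46 and 13.64 (3.35 ± 0.37), and the troponin gene tnni1.2.L by 3.07.

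The myogenic factors myf5 and myod1 were already high in LG. myf5.L rose by 0.57 ± 0.08 from a mean of 11.32, and myod1.S by 0.92 ± 0.15, from 10.35, 9.60 and 9.64 to 10.91, 10.55 and 10.87. myod1.L rose by 1.01, whereas myf6.S was near the floor, at means of 2.31 in LG and 2.08 in EN. Their cofactor mef2d.L rose by 2.14, its other probe set by 0.70. The gene that fell was ckb.L (0.51), the brain-type creatine kinase, whose 6 probe sets ranged from -0.57 to 0.02. Other copies of the list rose, such as tnni2.S by 1.10 ± 0.14, pygm.L by 2.27, chrna1.L by 2.58 and unc45b.S by 2.55. pygm.S changed by 0.22, with -1.78 for its other probe set, and was not called. ckm.L, tnnc2.L and atp2a1.S, some of the markers of mature fibres, had changes of 0.54, 0.08 and -0.37 and were not called. The LG levels of tnnc2.L ranged from 3.24 to 6.52. acta1.S, a further such marker, was near the floor in both stages (means of 2.26 and 2.29) and was not tested.

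Among heart and blood genes both directions were seen. Of 48 copies 38 were tested, 11 rose (28.9%) and 10 fell (26.3%), against 17.1% and 20.3% of all gene copies. nkx2-5.S, the homeobox gene of heart precursors, was at 2.37, 2.47 and 2.80 in LG and at 5.26, 5.82 and 7.15 in EN, a rise of 3.53 ± 0.35 (adjusted p = 0.00831). It passed the filter through EN alone, which limits its adjusted p. hand1.L rose by 4.37 ± 0.34 and spib.S, an early myeloid factor gene, by 1.54, and the globin gene hba3.L by 1.64, from a mean of 3.15 to 4.80. gata4.S fell by 1.09 ± 0.17, from 11.16, 11.38 and 11.51 to 10.44, 10.36 and 9.96, gata4.L by 0.86, gata5.L by 0.53 and hhex.L by 1.64. In the pronephric list 5 of 25 copies rose, among them tfcp2l1.L (2.08) and tfcp2l1.S (1.75), and 5 fell, among them osr1.L (0.68). Each count was 21.7% of the 23 tested, near the shares over all gene copies.

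Endoderm and organizer genes mostly fell. Of 48 endodermal copies 46 were tested, 7 rose (15.2%) and 24 fell (52.2%), with a median of -0.55. In the list of organizer and early mesendoderm genes, which shares members with it, 43 of 75 copies fell and 4 rose. These were 60.6% and 5.63% of the 71 tested, and the median was -0.47. Of all gene copies 20.3% fell and 17.1% rose. eomes.S, a T-box gene of the early mesendoderm, was at 8.49, 9.70 and 9.62 in LG and at 5.88, 6.99 and 5.92 in EN, a fall by 3.01 ± 0.26 (adjusted p = 0.00817).

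The Mix and Bix homeobox genes, direct targets of Nodal signals, fell as a group. mixer.S went from 9.18, 9.71 and 10.13 to 7.38, 7.57 and 5.87 (-2.73 ± 0.47), mixer.L fell by 2.54, bix1.2.S by 3.09, bix1.3.S by 2.86, mix1.L by 2.34 and mix1.S by 2.84. For mix1.S the standard error was 0.83 and the adjusted p 0.0441, because its EN level in replicate 3 was 3.73 against 7.41 and 7.46. The maternal T-box gene vegt.L, upstream of them in this frog, fell by 1.28 ± 0.22, from 12.50, 12.60 and 12.97 to 11.69, 11.55 and 11.00.

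Genes of secreted antagonists of the head organizer also fell. cer1.S, coding for cerberus, was at 12.24, 13.42 and 13.53 in LG and at 11.13, 12.27 and 10.85 in EN and fell by 1.64 ± 0.31, with overlapping stages. dkk1.S fell by 1.19 and the frizzled-related genes frzb.S and frzb.L by 1.39 and 0.66. The endodermal factor genes sox17a.L, sox17a.S, gata6.L and gata6.S changed by -0.08, -0.07, 0.00 and -0.02 and were not called, and the endodermal protein gene a2m.S rose by 0.19 ± 0.05 near the top of the scale.

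**Figure D4:**
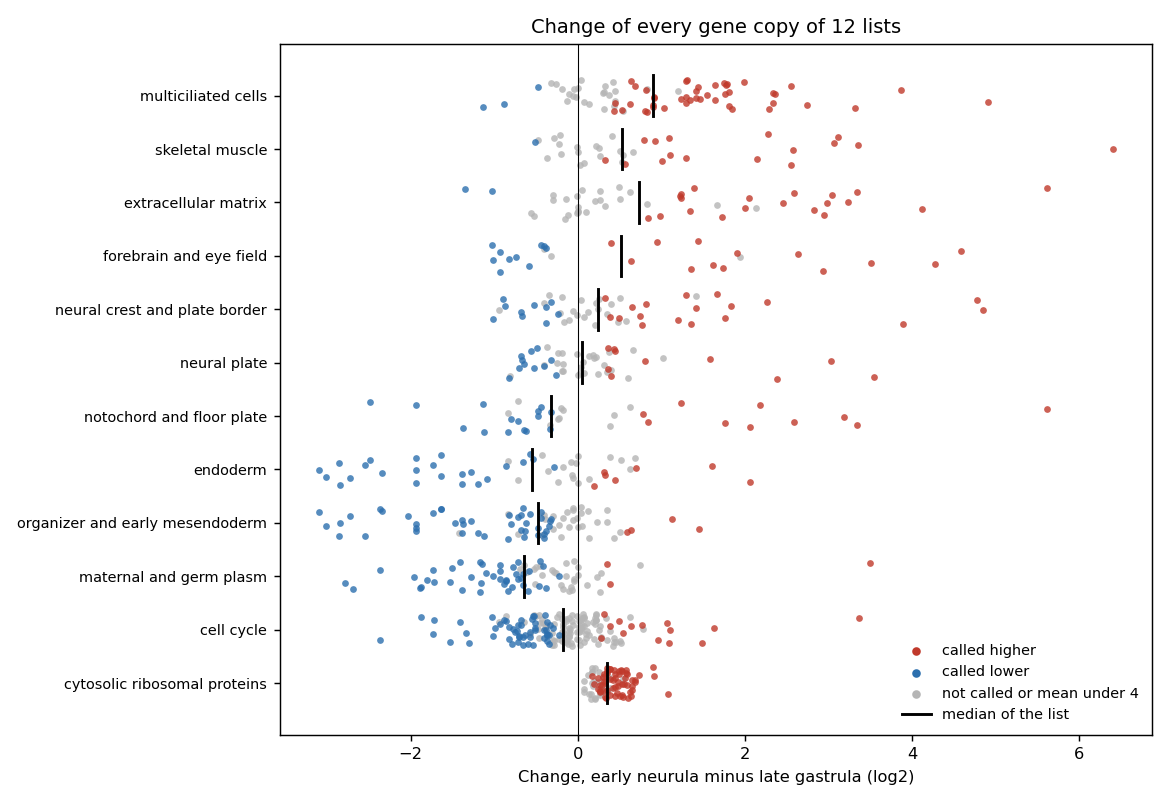
Change from LG to EN (log2, horizontal axis) of every gene copy in 12 lists, 1 dot for each copy, coloured where called, with a bar at the list's median. The medians run from -0.64 for maternal and germ plasm genes to 0.90 for multiciliated cell genes, and the forebrain list has called copies on both sides.

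In the BMP and Nodal pathways, which pattern the gastrula, more copies fell than rose. Of 69 BMP and Nodal copies 63 were tested, 24 fell (38.1%) and 3 rose (4.76%), and the median was -0.24. Of all gene copies 20.3% fell and 17.1% rose. The ligand genes differed. nodal.L fell by 1.93 ± 0.49, bmp7.2.L by 1.51 ± 0.20, gdf3.S by 1.37 and bmp4.S by 0.47, whereas bmp7.1.L rose by 0.86 and bmp2.L by 0.85. The partner copies bmp4.L (-0.30) and bmp2.S (-0.22) were not called. The named copies of bmp7, on different chromosomes, thus moved apart, from a mean of 13.04 to 11.53 and from 9.74 to 10.60.

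Among intracellular members smad1.L fell by 0.56 and the ubiquitin ligase gene smurf1.L by 1.87, and the BMP target gene ventx2.1.L by 0.44. The brightest of 7 probe sets of ventx1.1.L fell by 0.57, but the 7 ran from -0.57 to 2.46, so no direction is given for that copy. dand5.S, coding for an antagonist of Nodal and BMP, fell by 2.48 (0.90 in its other probe set). The receptor genes bmpr1a.L, bmpr2.S, acvr2a.L and acvr2b.L had changes between -0.23 and 0.11 that were not called. id4.S, an inhibitor of helix-loop-helix factors, rose by 1.67.

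Of 6 copies of Wnt ligand genes 4 were tested, and none of these rose. Among them 2 fell, wnt8a.L by 0.68 ± 0.18 and wnt11.S by 1.47 ± 0.20. The brighter wnt11b.L, at means of 12.33 in LG and 11.89 in EN, changed by -0.43 ± 0.15 and was not called. Nor was wnt5b.S (0.07). The level of wnt11.S went from 7.79, 8.24 and 8.08 to 6.35, 7.08 and 6.27. wnt5a.S and wnt8b.S, under 4 in both stages, were not tested and changed by 0.50 and 0.12. Among the receptors fzd3.L (1.12) and fzd2.S (0.67) rose and both copies of ryk fell (0.56 and 0.40). fzd8.S was called higher (0.35), but its 4 probe sets ran from -0.39 to 0.35. Of the antagonists and targets 12 of 32 copies fell and 3 rose, which is 41.4% and 10.3% of the 29 tested. The feedback target axin2 was not called in either copy. axin2.S changed by 0.10, with -0.13 for its other probe set, and axin2.L by -0.04. In the FGF list 4 of 31 copies rose and 2 fell, led by fgfrl1.L (1.92 ± 0.22), while fgf8.L changed by -0.06, its 3 probe sets between -0.06 and 0.01. The FGF shares were 16% and 8% of the 25 tested, against 17.1% and 20.3% of all gene copies, so the share that rose was near the background.

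For planar cell polarity and neural tube closure, the processes that narrow and fold the plate, the shares were near the background. Of 65 copies 63 were tested, 14 rose and 10 fell, and the median of -0.04 was that of all gene copies. shroom3.L, coding for the inducer of apical constriction in the folding plate, rose by 1.41 ± 0.34 (adjusted p = 0.0283), from 4.60, 4.46 and 4.12 to 5.64, 5.34 and 6.42. vangl1.L rose by 0.94, myl9.L by 0.82 and arhgef2.S by 0.79, its other probe set by 2.42. The core components vangl2.L, vangl2.S, prickle1.L, dvl2.L, ptk7.L and the effectors daam1.S and rock2.L had changes between -0.20 and 0.05 and were not called, though the 4 probe sets of daam1.S ran from -0.55 to 0.76. Falling were lmo7.S (1.44), specc1.L (1.12) and both copies of marcksl1 (0.60 and 0.57). Without replicate 2, 2 of these copies rose and 3 fell.

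Matrix genes rose. Of 46 copies of extracellular matrix genes 37 were tested, 20 rose (54.1%) and 2 fell (5.41%), and the median was 0.73. The shares of all gene copies were 17.1% and 20.3%. fbn3.L, a fibrillin, rose from 9.64, 7.74 and 7.94 to 11.32, 10.76 and 11.72 (2.82 ± 0.37, adjusted p = 0.00927), sparc.L by 2.95, the metalloprotease gene mmp3.L by 4.12 and the hyaluronan link protein gene hapln3.L by 3.23. Genes of collagen maturation rose too: the collagen chaperone serpinh1.S by 2.98, one of its 2 probe sets by only 0.22, and the lysyl hydroxylase genes plod3.L and plod1.S by 1.34 and 1.24. Fibronectin (fn1.S), on which gastrula cells migrate, had a change of 0.05 and was not called.

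More pluripotency and early zygotic genes fell than rose. In the list of pluripotency and early zygotic genes 44 copies were measured, 43 tested, 22 fell (51.2%) and 7 rose (16.3%). The median was -0.39, and of all gene copies 20.3% fell and 17.1% rose. klf2.S, a Krüppel-like factor gene, had the largest fitted fall of all gene copies: 9.39, 10.18 and 10.38 in LG and 6.88, 6.93 and 5.54 in EN (-3.54 ± 0.42, adjusted p = 0.00876). Its 2 probe sets fell by 3.54 and 3.52. The frog relatives of Oct4 were unequal. pou5f3.2.L fell by 2.14 ± 0.33, from 12.75, 13.17 and 13.30 to 11.22, 11.55 and 10.03, pou5f3.3.L fell by 1.87, and pou5f3.1.L changed by -0.08 and was not called.

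tdgf1.3.L, a Nodal co-receptor gene of the Cripto family, fell by 2.36 ± 0.34 and tdgf1.1.L by 2.03, while tdgf1.2.S rose by 1.45. The other copies that rose were both copies of tfcp2l1, tp63.S, foxi1.L, myc.S (0.75) and mycn.S (1.42). All of these also stand in other lists, myc.S and mycn.S in that of the crest, tfcp2l1 in that of the kidney, and tp63.S and foxi1.L in that of the epidermis.

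Maternal transcripts mostly fell. Of 73 copies of oocyte, egg and germ plasm genes 70 were tested, 42 fell (60%) and 3 rose (4.29%). The shares of all gene copies were 20.3% and 17.1%. The list's median of -0.64 was the lowest of all lists. Between EG and LG the median change of the copies in this list had been -1.57. btg4.S, whose product recruits a deadenylase to maternal mRNA in mouse, was at 6.81, 8.16 and 6.82 in LG and at 4.54, 5.20 and 3.99 in EN, a fall by 2.69 ± 0.24 (adjusted p = 0.00817). patl2.L, coding for an oocyte translational repressor, fell by 2.78, ccna1.L, the embryonic cyclin A, by 2.37, rnf138.S by 1.89 and velo1.L by 1.73.

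Of the germ plasm genes dazl.L fell by 0.45 and nanos1.L by 0.74, both with overlapping stages, and ddx25.L changed by -0.26 and was not called. The 3 that rose were both copies of celf1, an RNA-binding protein gene (celf1.L by 0.38 and celf1.S by 0.35, with -0.05 and -0.25 for their other probe sets), and fbxo43.L, coding for an inhibitor of the anaphase-promoting complex in the egg. Its mean was 11.17 at EG, and its level was 5.42, 2.76 and 5.47 in LG and 8.36, 7.48 and 8.28 in EN, a rise of 3.49 ± 0.41 (adjusted p = 0.00862). Its partner fbxo43.S changed by 0.00.

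More cell cycle genes fell than rose. Of 164 copies 160 were tested, 52 fell (32.5%) and 14 rose (8.75%), with a median of -0.18. Of all gene copies 20.3% fell and 17.1% rose. The falls included the cyclin genes ccnb1.S (1.87) and ccna1.S (1.72) and the kinase genes wee2.L (1.53) and wee2.S (1.41). Further falls were those of ccna2.L by 0.75, ccne1.S by 0.93, ccnb2.L by 0.78, survivin (birc5.L) by 1.30 and the origin gene orc6.L by 1.73. Helicase genes were divided: mcm5.S rose by 3.36 ± 0.43, from 3.72, 4.34 and 3.27 to 6.01, 7.65 and 7.77, mcm6.2.L rose by 1.10 and mcm3.L fell by 1.34. fzr1.L, an activator of the anaphase-promoting complex after mitosis, rose by 1.63.

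Linker histone genes differed. h1-8.S, the oocyte form, fell by 0.93 ± 0.09, from 11.85, 11.93 and 13.02 to 10.77, 10.94 and 12.29, and h1-10.S, a somatic form, rose by 0.64 ± 0.08, though its 2 probe sets disagreed (-0.34 and 0.64). The histone chaperone gene nasp.S fell by 1.46 and the variant histone gene macroh2a2.L rose by 1.92. Of this list of 36 copies 35 were tested, 5 rose (14.3%) and 6 fell (17.1%), near the 17.1% and 20.3% of all gene copies.

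Ribosomal protein genes rose by small amounts. All 88 copies were higher in EN on average, 86 were tested, 59 rose and 0 fell, and the median was 0.35. The share that rose was 68.6%, against 17.1% of all gene copies. The largest rise was that of rpsa.L, from 10.82, 10.56 and 10.26 to 11.51, 11.46 and 11.91 (1.08 ± 0.19, adjusted p = 0.014), and the smallest called was that of rps27.S (0.17 ± 0.05), whose 3 probe sets lay between -0.04 and 0.17. In 72 copies every EN array lay above every LG array, against 19.1% of all gene copies. Without replicate 2 only 17 copies were called.

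Common reference genes had a median of 0.05 over 19 copies, of which 4 rose (21.1%) and 1 fell (5.26%). Of all gene copies 17.1% rose and 20.3% fell. actb.L (0.14) and odc1.L (-0.19) were not called. Among the called copies hprt1.L rose by 1.35, rpl8.S by 0.56 and ppia.L by 0.30, with -0.18 for the other probe set of ppia.L. gapdh.S rose by 0.88 while gapdh.L changed by -0.08, and sdha.S fell by 0.89 while sdha.L changed by -0.14.

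**Figure D5:**
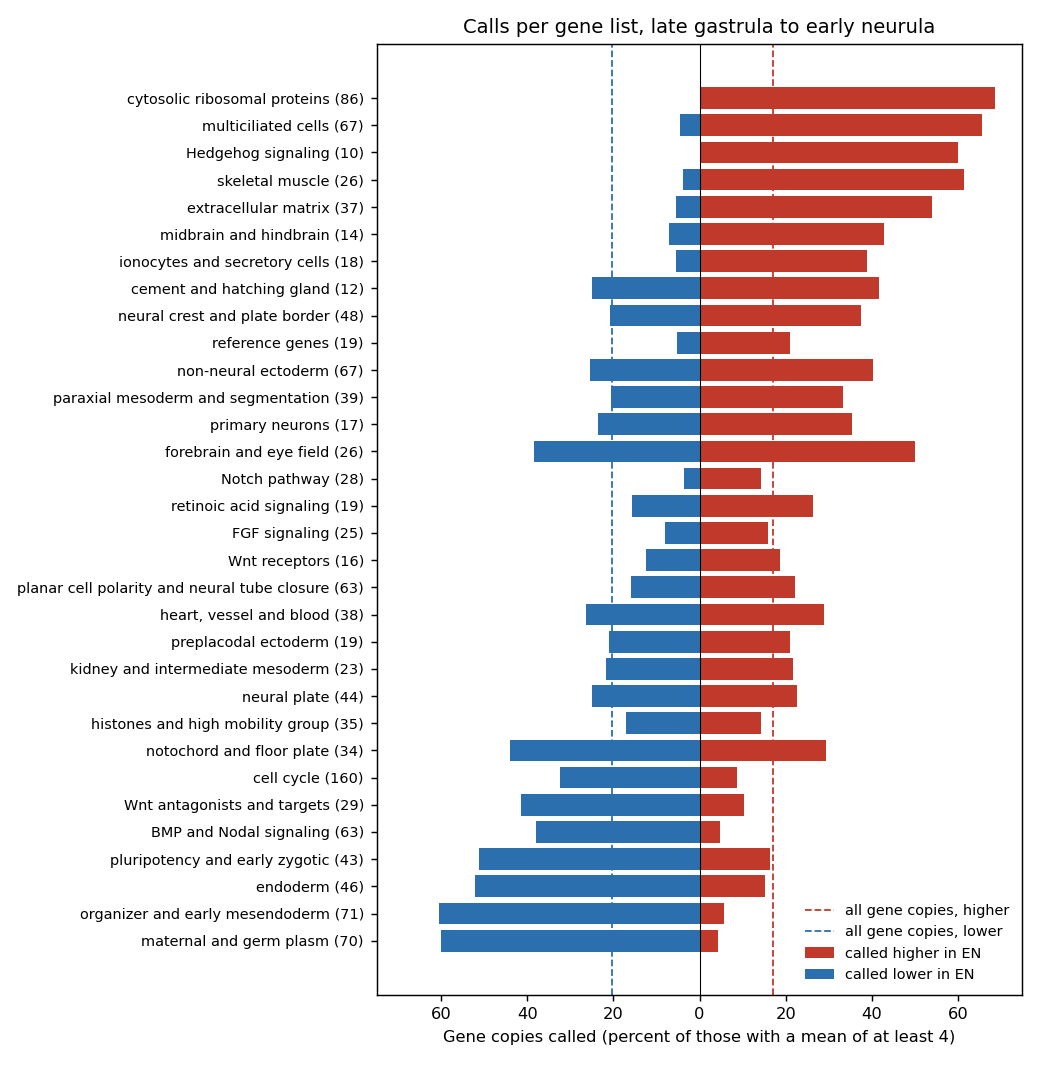
Share of gene copies called higher (right, percent) and lower (left, percent) in EN for the 32 lists with at least 10 copies tested, of the copies with a mean of at least 4 in LG or EN (their number in brackets). Dashed lines mark the shares over all gene copies, 17.1% higher and 20.3% lower. Lists of ribosomal proteins and multiciliated cells lie at the top, and those of maternal genes and the organizer at the bottom.

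Outside the lists, further steep rises are given here gene by gene. elovl2.L, a fatty acid elongase, rose by 4.75 ± 0.24, from 3.12, 2.29 and 2.28 to 7.70, 6.98 and 7.26. slc26a4l.L, an anion exchanger relative, rose by 5.18, the glucose transporter gene slc2a12.L by 4.27, sptlc3.S, a subunit of the enzyme that starts sphingolipid synthesis, by 4.15 and the nucleotide receptor gene p2ry4.L by 4.97. fbxl22.S was at 2.07 in all LG arrays and at 8.06, 6.51 and 9.19 in EN, and sarcalumenin (srl.L), a calcium-binding protein of the sarcoplasmic reticulum, rose by 4.68. The guidance ligand gene slit2.S rose by 3.94, and gas6.S, a growth factor, by 3.38.

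Among the falls outside the lists were hs3st1.L, coding for a heparan sulfate sulfotransferase (-3.20 ± 0.36), the Cdk5 activator gene cdk5r2.S (-3.10 ± 0.57), the phosphate transporter gene slc20a2.L (-2.83) and the poly(A) polymerase gene tent5b.S (-2.82). cdk5r2.S had been at a mean of 11.35 at EG, and stood at 5.38, 6.66 and 7.30 in LG and at 3.25, 4.42 and 2.39 in EN. Smaller but evenly measured falls were those of the chromatin remodelling ATPase gene smarca5.S (0.59 ± 0.07), the spindle gene haus1.L (0.86 ± 0.10) and creb1.S (0.51 ± 0.07).

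The L and S copies of a gene more often changed in the same direction than in opposite ones. Whether the probe set of a copy also read its partner was not tested. For 1589 genes both copies were measured, and 70.9% of them had changes of the same sign. Where both were called, in 291 genes, 271 moved the same way and 20 opposite ways, and in 543 genes only 1 copy was called. Across these genes the changes of the copies correlated with r = 0.548, as a description over genes that share the 6 arrays. The opposite ones included glo1, a glyoxalase gene, with glo1.L falling by 1.15 and glo1.S rising by 2.20, and prdx4, a peroxiredoxin gene (1.11 for L and -0.67 for S).

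The course over gastrulation was set beside that into neurulation. The comparison of LG with EG shares the LG arrays, so its values are given side by side only. Of the 3227 probe sets that rose from LG to EN, 1893 were also called higher from EG to LG, 411 were called lower and 923 were not called. Of the 3516 that fell, 2145 were also called lower, 279 were called higher and 1092 were not called. From EG to LG, 65.9% of 20538 probe sets were called.

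Some single genes turned around. gata4.S had gone from a mean of 7.27 at EG to 11.35 at LG before falling, cer1.S from 8.95 to 13.06, tbxt.S from 9.45 to 12.59 and otx2.S from 5.72 to 10.49. The EG arrays were widely spread, with an SD of 2.37 for cer1.S, 2.08 for tbxt.S and 2.28 for otx2.S. The size of the earlier rise thus differed between replicates. In the other direction ets1.S, a crest and vessel factor gene, had dropped from 10.22 at EG to 7.59 at LG and rose by 1.20 to EN, and ccn1.S, a secreted matrix-associated protein gene, went from a mean of 6.98 at EG to 2.37 and back to 5.57. myl1.S, tcf15.L, col2a1.L and atp6v1g3.L were all below 2.2 at EG.

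In embryos with Gam1 mRNA most of the probe sets called in water embryos moved the same way over this interval. In the 6 Gam1 arrays of LG and EN, 3221 of the 3227 probe sets that rose in water embryos (99.8%) were higher in EN and 3495 of the 3516 that fell (99.4%) were lower. The median change of the risers was 0.97 in water and 0.95 in Gam1 embryos, and that of the fallers -0.86 and -0.82. Both kinds of embryo carry the same replicate numbers. A test of the difference between the changes called 1 of 23630 probe sets (0.00423%), at an adjusted p of 0.05, and 706 had an unadjusted p under 0.05.

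For single genes the sizes could differ, though none of those named here passed the test of the difference. dmrta1.S rose by 4.27 in water and by 1.78 in Gam1 embryos, tfap2b.L by 3.89 and 1.30, ca2.L by 4.64 and 2.22, nr2f2.L by 4.78 and 2.84, and foxi1.L by 1.13 against -0.01. lhx5.S fell by 3.06 in water and by 1.64 in Gam1 embryos. Others were alike in size, such as myl1.S (6.40 and 6.35), col2a1.L (5.61 and 5.46), eomes.S (-3.01 and -2.34) and btg4.S (-2.69 and -2.57).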

How the data were processed

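RNA of whole embryos was hybridised to Affymetrix X. laevis arrays, 1 array per sample. The authors read the arrays with Bioconductor packages and deposited log2 values after quantile normalization. Background correction and summarization are not given in the sources used here. Of 23701 probe sets 71 controls (AFFX) were left out, and 23630 were tested. The probe sets had 1 symbol (12258), several (228) or none (11144) in the platform annotation, and 2 symbols were updated from the Xenopus_laevis_v10.1 gene table, used for names only. No genome of the arrays' design was used, so no coordinates or sequences are given.

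EN was compared with LG by limma 3.58.1 (R 4.3.3), with the replicate number as a block, a trend in the variance and Benjamini-Hochberg adjustment over all probe sets of the fit. Deviations from the stage means correlated at 0.669, 0.76 and 0.529 between arrays of the same number and at -0.457 to -0.174 between others, so the numbers were taken to pair the samples. The sources name 3 biological replicates. A filter (mean of at least 4 in LG or EN) was among the listed alternatives, and the text uses its calls, a choice made after the result of the full fit was known. The number of arrays limits the precision: the median SD over 3 arrays was 0.272 in LG and 0.233 in EN.

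The brightest probe set stood for a gene copy, and the range over several is given for described copies whose probe sets differed in sign or by more than 1. Named genes were the 15 largest changes in each direction with a mean of at least 5 in the higher stage, of each list the 4 copies of smallest p, and defining markers. Further examples were chosen after their values were seen. The members and lists were chosen with earlier results of these data known, and kinase genes were taken out of the ribosomal list by name. Lists are described by counts and medians, with no test. The fits were tested on simulated data. Tables and plots were made with Python 3.11.15, numpy 2.4.6, pandas 2.3.3 and matplotlib 3.10.9. Alternatives were other filters, spreads, normalizations and sample sets, the methods' Student's test, and each replicate left out.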

Additional observations from a re-analysis of the deposited data

Results flagged for a closer look

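One probe set without a gene symbol, Xl2.9526.1.A1_at, was singled out because its change from LG to EN differed between the injections. Its mean went from 2.40 to 2.75 in water embryos and from 2.77 to 5.20 in embryos with Gam1 mRNA, changes of 0.35 and 2.43. The difference of 2.08 had an adjusted p of 0.00483 in limma over all probe sets, and all 3 Gam1 EN arrays lay above the other arrays of both stages. Without any 1 of the replicates it was not called. The water levels lie near the floor.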

How the results depend on the processing

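The number of calls depended on the fit. Over all probe sets, where the paired fit called 0, the 9 water arrays with their replicate block gave 3890 (1615 higher, 2275 lower), the methods' Student's test after adjustment gave 5 (2 and 3), a minimum mean of 4 gave 6743 (3227 and 3516) and one of 6 gave 6151 (2959 and 3192). Leaving out each replicate, a spread without trend, a second quantile normalization and median centring gave 0.

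Without the replicate block, 123 probe sets were called over all (98 and 25), and 1537 of those with a mean of at least 4 (990 and 547), against 6743 with it.

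With the minimum mean of 4, the following alternatives were chosen after seeing the data. The 9 water arrays gave 5050 calls (2064 and 2986), the Student's test 3 (2 and 1) and no trend 4152 (2065 and 2087). Leaving out each replicate gave 2298 to 7320 calls, 1311 to 3521 higher and 987 to 3799 lower, the lowest each time without replicate 2. The second quantile normalization gave 6747 and median centring 6748.

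The test of the difference between injections called 1 probe set, and 0 with a minimum mean of 6 or with any replicate left out (0 to 0). No result reversed. Of 36 list medians, 2, 3 and 7 moved by more than the spread without replicates 1, 2 and 3, 6 with a minimum mean of 6, 2 with the mean of all probe sets of a gene copy, and 0 with median centring. Dim probe sets limit the size of changes near the floor.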
